A study of Arabidopsis thaliana and Setaria viridis and Zea mays with 22 samples.

Results

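Cluster 4 is 1 of 19 clusters into which the study sorted root tip cells and nuclei of maize, sorghum and Setaria viridis. Its members were selected on the deposited cluster number, which the authors derived from the expression of all genes, and the cluster was picked for its share in Setaria protoplasts against Setaria nuclei. They came to 2831 of 43212 cells and nuclei, or 6.55%, which made it the fifth most populous cluster. Of these, 2255 were from Setaria, 509 from sorghum and 67 from maize. The cluster carries no tissue name in the deposited table, and that table lists no genes, so it is called by its number and its identity could not be checked against markers.

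The libraries were made from dissected root tips on the 10x Chromium platform, which tags each captured transcript with a unique molecular identifier (UMI). Nuclei were run in 4 libraries of maize (Zea mays, strain B73), 3 of sorghum (Sorghum bicolor, strain Btx623) and 2 of Setaria viridis (strain A10.1). Protoplasts were run in 1 library of sorghum and 3 of Setaria. Maize and sorghum tips were cut at 0.5 cm after 7 days of growth and Setaria tips at 0.2 cm after 15 days, per the labels' protocols, whereas the plants are tagged as 10 days old throughout. No plant was treated and no transgene is named, and species, tip length and days of growth cannot be told apart in the comparisons between species. By the labels, version 2 of the 10x chemistry was used for sorghum protoplasts, for maize nuclei and for 1 Setaria protoplast library (replicate 1), and version 3 everywhere else. Chemistry therefore cannot be told apart from preparation in sorghum, nor from species where maize nuclei are compared. The 3 sorghum nuclei libraries are called by their deposited names, Sorgh_Nucl, Sorgh_Nucl1 and Sorgh_Nucl2. Whether the libraries of 1 group stem from different batches of plants is not stated, and the spread that the p-values rest on may be technical.

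A grass root tip holds a dividing meristem, covered in front by the root cap and behind it maturing into epidermis, cortex, endodermis and the vascular tissue of the stele. Protoplasts are whole cells freed by digesting the cell wall with enzymes, so cell types whose walls resist digestion, or whose protoplasts burst, can be lost. Nuclei are released by lysis and do not need the wall to be digested, but they hold only part of the RNA of a cell. A cluster's share of a library can therefore differ between the preparations with no difference in the plant.

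Libraries held 113 to 8551 cells or nuclei and 536441 to 175885808 UMIs in total. Setaria protoplast replicate 1, which also differs in chemistry, stood apart from the other libraries of its group, with 981 cells and a median of 3593 UMIs against 19938 and 22643.5 in replicates 2 and 3. Maize nuclei replicate 1 held 113 nuclei, of which 4 were in cluster 4, and enters no comparison of UMIs or genes within the cluster, where at least 10 members per library were required. Of the members, 39 (1.38%) carried a barcode also found in another library, against 1.04% of other cells, and 2 barcodes were shared by members of different libraries.

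Cluster 4 took at most 4.08% of any nuclei library of the 3 grasses and at least 6.27% of the sorghum and Setaria protoplast libraries. In maize nuclei it took 3.54%, 2.63%, 1.60% and 1.76% of replicates 1 to 4 (mean 2.38% ± 0.896, SD, n = 4). In sorghum nuclei it took 2.84% of Sorgh_Nucl, 2.87% of Sorgh_Nucl1 and 3.27% of Sorgh_Nucl2 (mean 2.99% ± 0.243, SD, n = 3). In Setaria nuclei it took 4.08% and 3.44% of replicates 1 and 2. In nuclei libraries its rank among the 19 clusters by share ran from 11 to 17.

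In the single sorghum protoplast library it took 6.27% (221 cells; 95% Wilson interval 5.52% to 7.12%), the seventh largest share. In Setaria protoplasts it took 8.56%, 16.6% and 16.1% of replicates 1, 2 and 3, and it was the most populous cluster of replicates 2 and 3 and the fifth of replicate 1. No nuclei library reached the share of any of the 4 protoplast libraries, of which the Setaria ones served to pick the cluster. Cluster 17 also lay higher in every protoplast library, at 2.46% to 4.97% against at most 2.24% in nuclei. Clusters 2 and 5 lay lower in every protoplast library than in any nuclei library. The Wilson intervals given here and in the plots cover counting error only. Setaria protoplasts supplied 58.5% of the members and 24.6% of all cells. If every library had counted equally, they would have supplied 56.1% of the members.

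**Figure D1:**
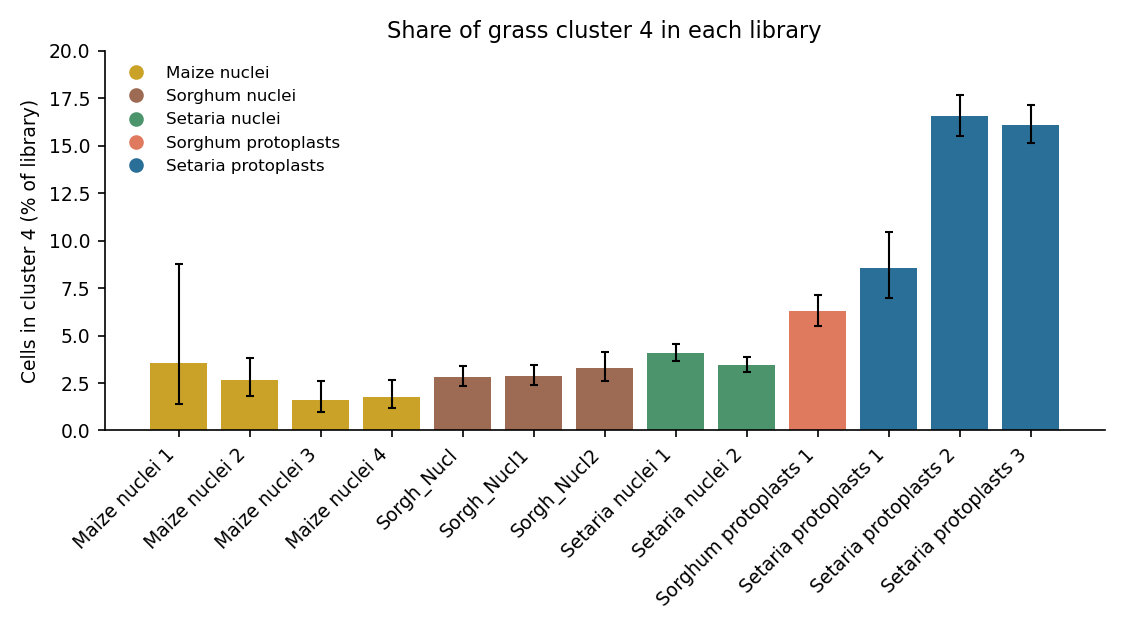
Share of each library's cells or nuclei in cluster 4 (vertical axis, % of library), 1 bar per library, coloured by group, with 95% Wilson intervals that cover counting error only. The 9 nuclei libraries lie between 1.60% and 4.08%, the sorghum protoplast library at 6.27% and the Setaria protoplast libraries between 8.56% and 16.6%.

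The first question is whether the cluster's share differed between the nuclei of the 3 grasses. Shares were tested with edgeR's quasi-likelihood test on cells per cluster over all 19 clusters, with the library as replicate. Sorghum nuclei were above maize nuclei by 0.48 on the log2 scale (SE 0.46, adjusted p = 0.720), and the groups overlapped, since maize replicate 1 was the highest of these 7 libraries. Setaria nuclei were above maize nuclei by 0.81 (SE 0.50, adjusted p = 0.474) and above sorghum nuclei by 0.33 (SE 0.49, adjusted p = 0.877). Maize replicate 1, at 3.54%, lay between the Setaria libraries, while both Setaria libraries lay above all 3 sorghum libraries. They also did so in clusters 3, 7 and 16, and they lay below all 3 in clusters 9, 11 and 12. The Setaria nuclei also belong to the contrast from which the cluster was picked, where a low share in these nuclei favours being picked. No cluster passed in any of these 3 comparisons by edgeR (0% called), by DESeq2 or by limma on log2 odds, and at an unadjusted edgeR p under 0.05 there were 0, 1 and 0 clusters, in the order given. Among nuclei of 2000 to 4000 UMIs, sorghum less maize was 0.02 (SE 0.55) and Setaria less sorghum 0.66 (SE 0.55), and sorghum less maize was 0.18 (SE 0.51) above a common UMI minimum of 1555. Without Setaria nuclei replicate 1, Setaria less sorghum was 0.20 (SE 0.69), and none of these differences passed.

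The preparations were compared next. In Setaria the cluster was chosen for its difference between protoplasts and nuclei, so that difference is given without a test. The mean share was 13.7% ± 4.49 (SD, n = 3) against 3.76% ± 0.454 (SD, n = 2), a ratio of 3.66, and the fitted log2 difference was 1.88 (SE 0.52), the highest of the 19 clusters. All 19 clusters, cluster 4 among them, entered the fit of that contrast, and 5 (26.3%) were called. As cluster 4 was picked on this contrast, nothing is read from that share here. Without protoplast replicate 1 the log2 difference was 2.12 (SE 0.32). Among cells with at least 2505 UMIs, the highest minimum of these libraries, the mean shares were 13.4% in protoplasts and 2.05% in nuclei. The log2 difference was 2.72 (SE 0.57). That minimum kept 10382 of 10620 protoplasts but 7455 of 16002 nuclei, with 152 members among the nuclei. The share in Setaria nuclei was lower in ranges of more UMIs, so this cut does not set depth aside.

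Sorghum did not enter the choice of the cluster. Its protoplast library lay above all 3 nuclei libraries in clusters 0, 6, 7, 10, 11, 16, 17 and 18. It lay below all 3 in clusters 2, 3, 5, 9, 13 and 15. For cluster 4 it also lay above all 3, at 2.10 times their mean share. The log2 difference was 1.07 (SE 0.59), the fifth highest of 19 clusters, and did not pass (edgeR adjusted p = 0.161, the spread of the only protoplast library being taken from the other groups). In that comparison 6 of 19 clusters (31.6%) were called. Fitted on sorghum libraries alone, the cluster passed at the same size of difference (log2 1.07, SE 0.29, edgeR adjusted p = 0.0138), but that fit takes its spread from the 3 nuclei libraries and measures none between protoplast libraries. With the same lone protoplast library, it also passed when only cells with at least 2735 UMIs were kept, the minimum of the protoplast library, with a log2 difference of 2.25 (SE 0.61, edgeR adjusted p = 0.00394). That minimum kept 2300 of 9775 sorghum nuclei, with 29 members among them.

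Members held fewer UMIs at the median than the other cells in 12 of 13 libraries, which is a description, since clustering used the expression of the same cells. The median member of Setaria protoplast replicate 1 held 2831.5 UMIs against 3653 in the other cells of the library. In replicates 2 and 3 the medians were 11609 and 12450 UMIs in members against 22630.5 and 25851.5 in other cells, so that other cells held 1.95 and 2.08 times as many. Replicate 1 differed less, at 1.29 times.

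In the sorghum protoplast library the medians were 7611 and 10043 UMIs. Among Setaria nuclei they were 2091 against 2316 in replicate 1 and 2332.5 against 2564 in replicate 2. In Setaria the gap between members and other cells was narrower in nuclei than in protoplasts.

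Among sorghum nuclei the member medians were 1022, 1664 and 1829 UMIs in Sorgh_Nucl, Sorgh_Nucl1 and Sorgh_Nucl2, against 1177, 1952 and 1856 in other nuclei. Among maize nuclei of replicates 2, 3 and 4 they were 3121.5, 2358 and 3023.5 UMIs against 3951, 2593 and 4129. The exception was maize replicate 1, with medians of 3455 in its 4 members and 3422 in other nuclei. Library minima, which bound these values from below, were 650 to 1555 UMIs in nuclei and 1611 to 2735 in protoplasts, and their part in the medians was not tested.

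**Figure D2:**
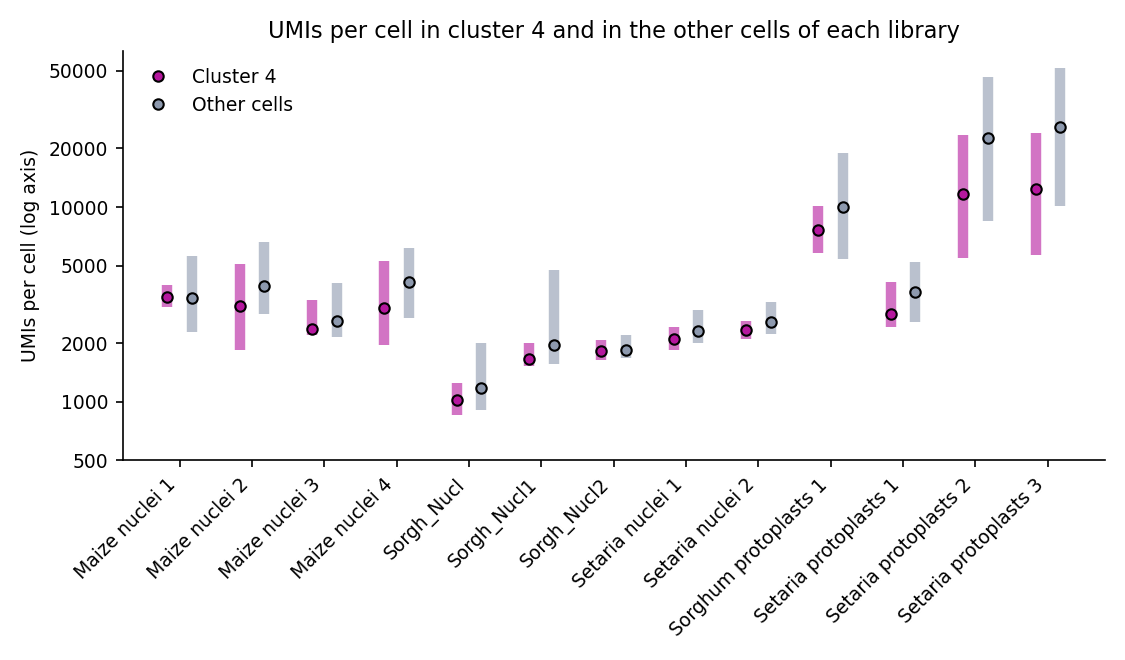
UMIs per cell (vertical log axis) in the members of cluster 4 and in the other cells of each library; circles are medians and bars run from the 25th to the 75th percentile. Member medians lie below those of other cells in every library except maize nuclei replicate 1, which has 4 members, and the gap is widest in Setaria protoplast replicates 2 and 3.

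The cluster took less of the UMIs than of the cells in every library. In Setaria protoplasts it held 6.77%, 8.55% and 7.71% of the UMIs of replicates 1, 2 and 3, which span a narrower range than its 8.56% to 16.6% of cells. In Setaria nuclei it held 3.26% and 2.69% of UMIs and in the sorghum protoplast library 4.41%. In sorghum nuclei the share of UMIs was 1.69% to 2.73% and in maize nuclei 1.47% to 2.68%. The lowest protoplast library exceeded the highest of the 9 nuclei libraries. This measure contains the share of cells, on which the cluster was picked in Setaria, so it is no separate evidence. Other clusters were not compared by it.

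The share was then read among cells of like UMI number, in ranges with at least 100 cells. Among Setaria nuclei it was lower in each higher range. It went from 6.56% at 1000 to 2000 UMIs to 3.64% at 2000 to 4000 and 1.28% at 4000 to 8000 in replicate 1, and from 6.38% to 3.68% and 0.613% in replicate 2. Between 8000 and 16000 UMIs there were 0 members among 130 and 206 nuclei, which allows shares of up to 2.31% and 1.46% on a floor of 3 cells. The upper Wilson limits of the same values, which are plotted, are 2.87% and 1.83%.

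Setaria protoplasts of 2000 to 4000 UMIs were in the cluster at 10.8%, 22.9% and 24.5% in replicates 1, 2 and 3. In that range the fitted log2 difference from Setaria nuclei was 2.40 (SE 0.57), again given without a test. Protoplast replicates 2 and 3 begin at 2505 and 2501 UMIs, so depth was matched only in part. In replicates 2 and 3 the share stayed between 22.5% and 26.7% from 2000 to 16000 UMIs. It was 18.1% and 17.9% at 16000 to 32000 and 6.59% and 5.91% at 32000 UMIs or more.

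The sorghum protoplast library had another profile. Only 2 of its 262 cells of 2000 to 4000 UMIs were members (0.763%), against 1.25%, 2.35% and 3.34% of nuclei in that range in Sorgh_Nucl, Sorgh_Nucl1 and Sorgh_Nucl2. Its share was 9.53% at 4000 to 8000 UMIs, 8.47% at 8000 to 16000, 2.11% at 16000 to 32000 and 0.939% above. In the 2000 to 4000 range the sign of the sorghum difference turned (log2 −1.59, SE 1.10, edgeR adjusted p = 0.291). The poorest member of this library held 3568 UMIs, whereas the library began at 2735.

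**Figure D3:**
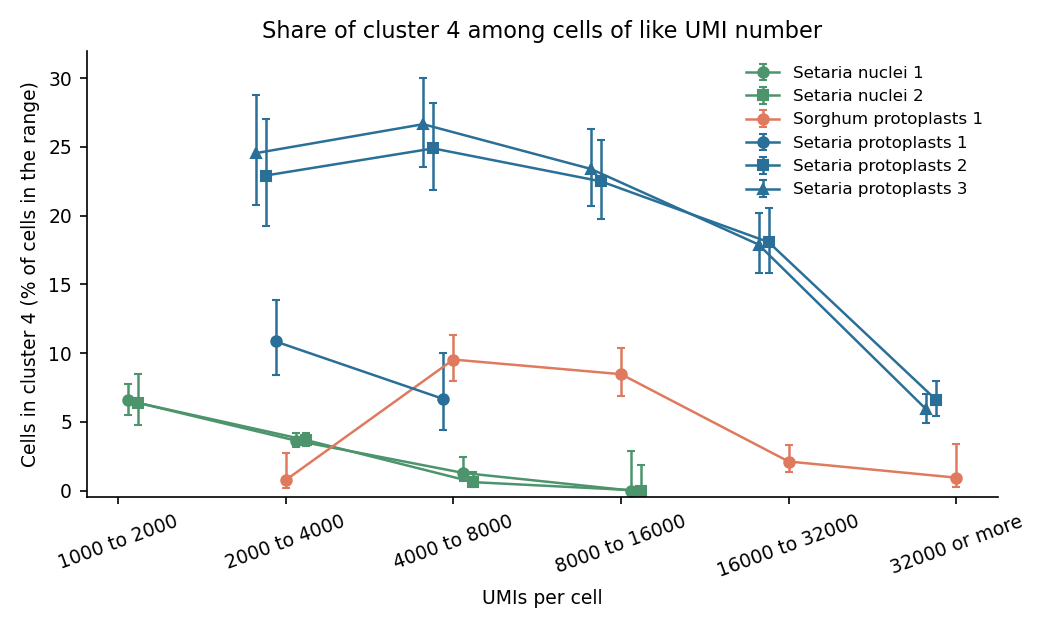
Share of cluster 4 (vertical axis, % of cells in the range) by UMIs per cell (horizontal axis, ranges with at least 100 cells) in Setaria and sorghum protoplasts and Setaria nuclei; points are libraries and bars are 95% Wilson intervals. Setaria protoplast replicates 2 and 3 stay between 22.5% and 26.7% up to 16000 UMIs, Setaria nuclei decline from about 6.56% to 0%, and the sorghum protoplast library peaks at 9.53% between 4000 and 8000 UMIs.

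The median log2 UMIs of a cluster were next taken relative to the median over the clusters of its library. They were tested with limma across all clusters of at least 10 cells. This takes out the level of a library's depth but not its spread. From the 25th to the 75th percentile, log2 UMIs of other cells spanned 0.56 and 0.54 in Setaria nuclei replicates 1 and 2. The span was 1.03, 2.45 and 2.35 in Setaria protoplast replicates 1, 2 and 3. The part of that spread in the differences was not tested. Cluster 4 lay at −1.19 and −0.999 in Setaria protoplast replicates 2 and 3 and at −0.30 in replicate 1, against −0.11 and −0.14 in Setaria nuclei. All 3 protoplast libraries were lower than both nuclei libraries. This also held for clusters 2, 3, 16 and 17, and for cluster 5 in replicates 2 and 3 (too few cells in replicate 1). Clusters 0, 8, 9, 10 and 12 were higher in all protoplast libraries, as was cluster 13 in replicates 2 and 3. The difference of cluster 4 was −0.70 (SE 0.25) and did not pass (limma adjusted p = 0.0654). There 3 of 19 clusters (15.8%) were called. Without replicate 1 it was −0.97 (SE 0.16) and passed (limma adjusted p = 0.000899). Fitted on Setaria libraries alone, with replicate 1 kept, it did not pass (−0.70, SE 0.31, limma adjusted p = 0.184).

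In sorghum the relative UMIs were 0.00 in protoplasts and −0.11, −0.33 and −0.02 in Sorgh_Nucl, Sorgh_Nucl1 and Sorgh_Nucl2, a difference of 0.16 (SE 0.31, limma adjusted p = 0.627) whose sign turned to −0.20 (SE 0.24) when all cells of a library were the baseline. In that comparison 7 of 19 clusters (36.8%) were called. Between Setaria and sorghum the effect of the preparation differed by −0.86 (SE 0.40), which did not pass (limma adjusted p = 0.106, with 9 of 19 clusters, 47.4%, called). Without Setaria protoplast replicate 1 it was −1.12 (SE 0.25) and passed (limma adjusted p = 0.00366). With all cells as the baseline it was −0.32 (SE 0.31). This test of the difference was chosen after the values were seen, and the difference cannot be told apart from chemistry, tip length or days of growth.

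Among nuclei, relative UMIs of the cluster averaged −0.27 ± 0.15 in maize (SD, n = 3), −0.16 ± 0.16 in sorghum (SD, n = 3) and −0.12 ± 0.025 in Setaria (SD, n = 2), and the groups overlapped. Differences between these groups ran from 0.03 to 0.14 with SEs of 0.22 to 0.25 (limma adjusted p from 0.713 to 0.979). In these 3 comparisons limma called 0 of 19 clusters (0%), with 3, 1 and 0 at an unadjusted p under 0.05 in the order sorghum less maize, Setaria less maize, Setaria less sorghum. Within both Setaria nuclei libraries cluster 4 had the lowest median UMIs of the 19 clusters. Its rank from the lowest was 3 to 5 in sorghum nuclei and 4 to 5 in maize nuclei replicates 2 to 4. It was 4, 4 and 5 in Setaria protoplast replicates 1, 2 and 3 and 10 in sorghum protoplasts. In Setaria protoplast replicates 2 and 3, clusters 2, 3 and 5 were lower.

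Members detected fewer genes than other cells wherever they held fewer UMIs. The medians in Setaria protoplast replicates 1, 2 and 3 were 1373, 3987 and 4056.5 genes in members and 1606, 5140.5 and 5376 in other cells. In the sorghum protoplast library they were 2498 and 3115 genes. Setaria nuclei of the cluster had 1359 and 1470 genes at the median against 1450 and 1554 in other nuclei. Member medians were 889 to 1263 genes in sorghum nuclei and 1728 to 2179.5 in maize nuclei replicates 2 to 4.

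Genes were also compared at a given number of UMIs, as the member median of log2 genes above or below the curve of log2 genes on log2 UMIs of the library. At equal UMIs, members of the Setaria protoplast libraries had more genes than their libraries' curve, by 2.69%, 6.50% and 6.84% in replicates 1, 2 and 3. Setaria nuclei of the cluster had 1.84% more in both libraries. The SD of all cells about the curve, in log2 genes, was 0.118, 0.166 and 0.166 in these protoplast libraries and 0.057 and 0.059 in Setaria nuclei. Whether the larger percentages follow that scatter was not tested. Members of the sorghum protoplast library lay on the other side of the curve, at −6.21%. Of these, 20.4% lay above it, against 64.3% to 73.2% in Setaria protoplasts. In Setaria nuclei 69.4% and 66.7% of members lay above it, within the range of Setaria protoplasts. Sorghum nuclei of the cluster lay within 0.736% of the curve.

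On the log2 scale the difference between sorghum protoplasts and nuclei was −0.096 (SE 0.024) and passed (limma adjusted p = 0.0102), one of 4 called among 19 clusters (21.1%). It rests on 1 protoplast library, whose spread is taken from the other groups, and an exact permutation of the 4 libraries cannot go below p = 0.25. In Setaria the difference was 0.048 (SE 0.019) and did not pass (limma adjusted p = 0.0837, with 5 of 19 clusters, 26.3%, called). All Setaria protoplast libraries lay above both nuclei libraries. So did those of clusters 0, 2 and 16, and replicates 2 and 3 in clusters 5 and 13, which had too few cells in replicate 1. In clusters 11, 12 and 17 all protoplast libraries lay below both nuclei libraries. Without protoplast replicate 1 the difference of cluster 4 was 0.067 (SE 0.0073) and passed (limma adjusted p = 1.34e-05). It also passed with a straight line in place of the curve (0.068, SE 0.023, limma adjusted p = 0.0387). Among cells of 2000 to 4000 UMIs its sign turned (−0.017, SE 0.021). Fitted on Setaria libraries alone, the difference of cluster 4 did not pass (0.048, SE 0.041, limma adjusted p = 0.461). Nor did it pass with the replicate number as a block (0.040, SE 0.032, limma adjusted p = 0.448), and an exact permutation gave p = 0.2.

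The effect of the preparation on genes at equal UMIs differed between Setaria and sorghum by 0.14 on the log2 scale (SE 0.031, limma adjusted p = 0.0125), and cluster 4 was the only one of 19 clusters called (5.26%). The call was lost without Setaria nuclei replicate 1 (0.14, limma adjusted p = 0.0645) or replicate 2 (0.14, limma adjusted p = 0.0644). This test too was chosen after the values were seen. Chemistry differed between preparations in sorghum, but not between Setaria nuclei and protoplast replicates 2 and 3. The difference therefore cannot be told apart from chemistry, tip length or days of growth. Among nuclei, the values were 0.016 ± 0.0026 in maize (SD, n = 3), 0.0038 ± 0.0059 in sorghum (SD, n = 3) and 0.026 in both Setaria libraries. The ranges of the 3 species did not overlap, which also held for clusters 0, 9 and 14. No difference of cluster 4 passed (limma adjusted p from 0.829 to 0.977). Fitted on those groups alone, Setaria less sorghum passed at the same size (0.023, SE 0.0066, limma adjusted p = 0.00321), and among nuclei of 2000 to 4000 UMIs its sign turned (−0.0029). In these comparisons limma called 0 of 19 clusters (0%), with 0, 2 and 0 at an unadjusted p under 0.05 in that same order.

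**Figure D4:**
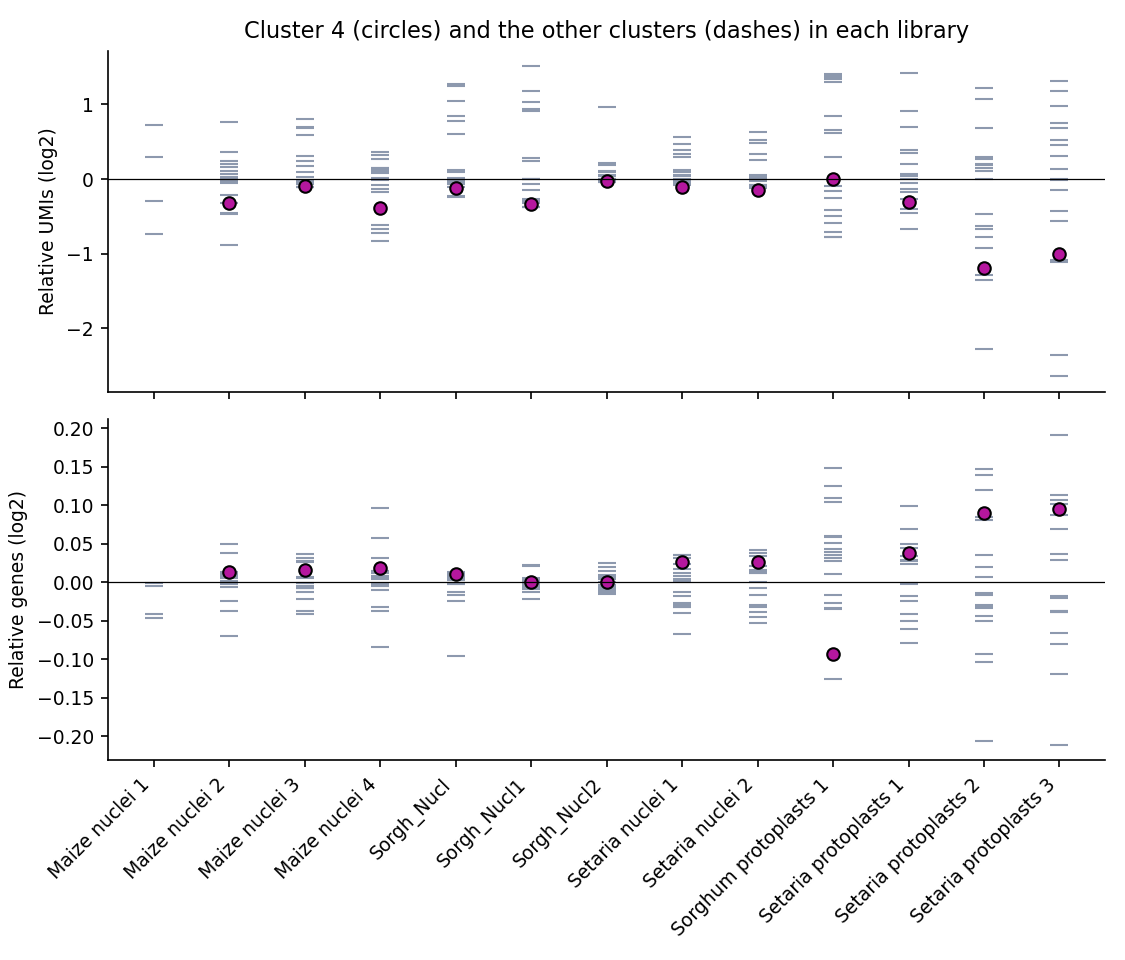
Relative UMIs (upper panel, log2) and relative genes at equal UMIs (lower panel, log2) of every cluster with at least 10 cells in each library; circles are cluster 4 and dashes the other clusters. Cluster 4 lies at −1.19 and −0.999 in relative UMIs in Setaria protoplast replicates 2 and 3, and below the line in relative genes in the sorghum protoplast library alone among the libraries shown.

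Clusters with a like pattern of shares were sought as those whose log2 odds correlated best with cluster 4 over the 13 libraries. These were cluster 6 (Pearson r = 0.90), cluster 18 (r = 0.79) and cluster 16 (r = 0.71). The values describe these libraries only, since libraries of a group share species, preparation and depth and the shares of a library sum to a fixed total. Over the 9 nuclei libraries alone r was 0.59, 0.78 and 0.20.

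Cluster 6 took 4.38%, 12.8% and 12.0% of Setaria protoplast replicates 1, 2 and 3 and 4.24% and 3.30% of Setaria nuclei, so that its replicate 1 was near the nuclei, whereas that of cluster 4 was not. In sorghum protoplasts cluster 6 took 4.28% against 3.30% ± 0.481 of nuclei (SD, n = 3). Clusters 16 and 18 took 5.36% and 5.33% of sorghum protoplasts, near the 6.27% of cluster 4, but 1.43% to 4.31% of Setaria protoplasts. Relative UMIs of these clusters in Setaria protoplasts varied between libraries. In replicates 2 and 3, cluster 6 lay at 0.19 and 0.69 and cluster 18 at 0.11 and 0.13, whereas cluster 16 lay at −0.77 and −0.15 and cluster 4 at −1.19 and −0.999. In replicate 1, cluster 6 was the lowest of them at −0.67, with cluster 4 at −0.30, cluster 16 at −0.27 and cluster 18 at 0.91. Protoplasts less nuclei of Setaria gave −0.85 (SE 0.29) for cluster 16, beside −0.70 (SE 0.25) for cluster 4, neither of which passed (limma adjusted p = 0.0654 for both). In the sorghum protoplast library cluster 4 was the highest of the 4, with clusters 6, 16 and 18 at −0.77, −0.71 and −0.50 and cluster 4 at 0.00. The differences between clusters were not tested.

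**Figure D5:**
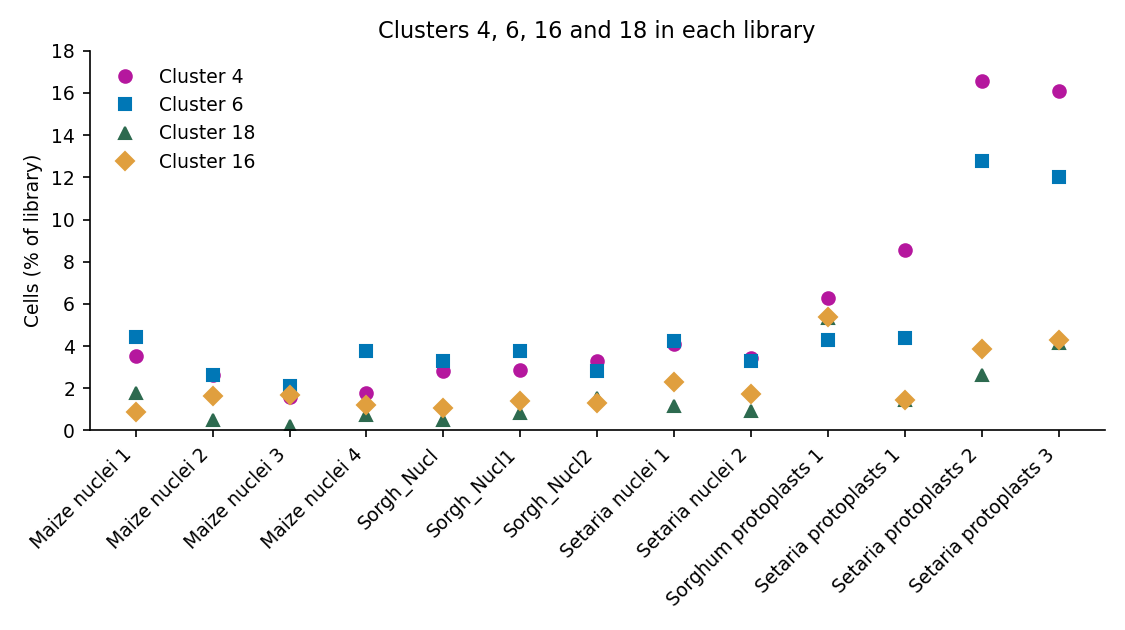
Share of clusters 4, 6, 16 and 18 in each library (vertical axis, % of library); each point is 1 library. Clusters 4 and 6 are both high in Setaria protoplast replicates 2 and 3, at 16.6% and 16.1% and at 12.8% and 12.0%, and clusters 4, 16 and 18 lie between 5.33% and 6.27% in sorghum protoplasts.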

How the data were processed

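The deposited table holds 1 entry per cell with raw counts of UMIs and detected genes, the library and a cluster number, per the file headers. A column name gives an integrated clustering by the authors at resolution 0.6. Cell Ranger 5.0.1 and Seurat 4.0 are listed in the submitters' processing notes. The sources used here do not give cell filters, doublet treatment or the builds of the grass genomes. Of 47536 entries, 4324 belong to 3 libraries that match no sample and were not used. Setaria protoplast replicate 1 was assigned by elimination.

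Cells per cluster were counted and tested with edgeR 4.0.16 (quasi-likelihood, robust, no trend, total cells as library size), and relative UMIs and genes with limma 3.58.1 (robust), each in 1 fit over 13 libraries, with Benjamini-Hochberg adjustment over 19 clusters, a threshold of 0.05 and two-sided tests. The curve of genes on UMIs was quadratic, fitted per library. The tests were tested on simulated data. DESeq2 1.42.0, limma on log2 odds (0.5 added), other filters and each library left out were tried. Replicates differed in cells per cluster (chi-square), except maize nuclei 1 and 2, which share 0 barcodes. The cluster, the tests and the clusters compared were chosen with earlier results of these data known. Named are cluster 4, clusters 6 and 18, and the 3 clusters likest in share.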

Additional observations from a re-analysis of the deposited data

Results flagged for a closer look

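The effect of the preparation on genes detected at equal UMIs in cluster 4 differed between Setaria and sorghum by 0.14 on the log2 scale (SE 0.031, limma adjusted p = 0.0125). It was flagged as a difference between groups. The contrast of protoplasts with nuclei gave 0.048 in Setaria and −0.096 in sorghum. The range over each library left out was 0.13 to 0.16, with limma adjusted p from 1.74e-06 to 0.0645. The sorghum side rests on 1 protoplast library, which also differs from the sorghum nuclei in chemistry. The difference therefore cannot be told apart from chemistry, tip length or days of growth. On the Setaria side, the contrast was −0.017 (SE 0.021) among cells of 2000 to 4000 UMIs. The test was chosen after the values were seen.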

How the results depend on the processing

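All values are log2 differences of cluster 4, first group less second. The share of sorghum protoplasts against nuclei was 1.07 (edgeR adjusted p = 0.0138) with only those groups, whose spread then comes from nuclei libraries alone, 2.25 with a common UMI minimum and −1.59 among cells of 2000 to 4000 UMIs, where 2 protoplast members remained. In Setaria it was 2.72 with a common UMI minimum, which kept 7455 of 16002 nuclei. Relative UMIs of sorghum less maize nuclei were −0.0028 with a common UMI minimum. Those of sorghum protoplasts less nuclei were −0.20 against all cells and −0.14 with at least 20 cells per cluster. Relative genes among cells of 2000 to 4000 UMIs were 0.018 for sorghum less maize nuclei, −0.0029 for Setaria less sorghum nuclei and −0.017 for Setaria protoplasts less nuclei. With only the groups compared, Setaria less sorghum nuclei was 0.023 and passed. Setaria protoplasts less nuclei passed with a straight line (0.068) and with at least 20 cells (0.048, limma adjusted p = 0.0450). This difference did not pass on Setaria libraries alone (limma adjusted p = 0.461) or with the replicate block (limma adjusted p = 0.448). The exact permutation test of sorghum protoplasts less nuclei (−0.096) gave p = 0.25, the smallest possible. The cause of these changes was not tested.

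Leaving out each library gave −0.97 to −0.53 for relative UMIs and 0.038 to 0.067 for relative genes of Setaria protoplasts less nuclei, and −0.056 (without Sorgh_Nucl1) to 0.098 for relative UMIs of Setaria less sorghum nuclei. The difference of preparation effects ranged from −1.12 to −0.68 in relative UMIs and from 0.13 to 0.16 in relative genes.

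Correlations of same-numbered deviations were −0.47 and −0.32 between Setaria protoplasts and nuclei, and 0.10 and −0.06 between maize and Setaria nuclei. With 2 Setaria nuclei libraries, deviations from their mean mirror each other. These values therefore cannot decide whether replicate numbers pair libraries. With the replicate block, relative UMIs of Setaria less maize nuclei were −0.11, where they were 0.14 without it, and the Setaria share difference between preparations was 1.89. No call changed under the block. Precision is limited by 1 to 4 libraries a group and by 4 to 26 members in the maize libraries.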
